A study of Rattus norvegicus with 2 samples.

Results

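Bone and cartilage matrix genes were compared between 1 array of rat intracranial aneurysm RNA and 1 array of control intracranial arterial wall RNA. The set held 10 genes of the 15159 genes matched to a probe: Spp1, Ibsp, Cilp, Cilp2, Comp, Mgp, Bglap, Sparc, Enpp1 and Alpl. They were chosen by name after the values were known, because Cilp, Ibsp and Spp1 were selected on their large higher differences in this same comparison. The differences of those 3 genes are therefore a description of the choice, and nothing is read from their size. The aneurysm RNA came from lesion tissue taken 3 weeks after induction, and the control RNA from untreated intracranial arterial wall of normal disease state. Both were total RNA labelled with 1 dye and read on the same slide in the same scan. The strain, age, method of induction and number of animals per array were not stated in the labels. With 1 array per group there was no test, no p-value and no replicate check, and every difference describes these 2 libraries only.

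Spp1 and Ibsp encode osteopontin and bone sialoprotein, members of the SIBLING family of acidic, secreted phosphoproteins that bind both calcium mineral and cell surface integrins. Cilp, Cilp2 and Comp encode proteins of the cartilage matrix, and Mgp and Bglap encode Gla proteins, which bind calcium through residues modified with the help of vitamin K. Enpp1 makes pyrophosphate, an inhibitor of mineral formation, and Alpl, tissue-nonspecific alkaline phosphatase, removes it. In arteries, matrix Gla protein is known to keep the smooth muscle layer free of mineral, and osteopontin is made by macrophages and by smooth muscle cells in damaged wall.

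Levels are processed spot intensities, and differences are log2 aneurysm minus control after each array was divided by its 75th percentile, which was 801 in the aneurysm and 621 in the control. The value after ± is a spot error, computed from the spread of repeat spots on an array, and it holds no variation between animals. Each of the 10 genes had 1 probe, together 36 spots per array. All 10 probes were well above background on the aneurysm array and 9 of them on the control array, Cilp2 being the exception. Over all probes, 76.4% of spots were well above background in the aneurysm and 74.7% in the control, and 0 spots were saturated.

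At a threshold of 2-fold, 4 of the 10 genes were higher in the aneurysm (Cilp, Ibsp, Spp1 and Cilp2) and 0 were lower. Of the 11903 genes that had a difference or a bound, 0.882% reached 2-fold in the higher direction and 3.91% in the lower. Because 3 of the 4 chose the set, nothing is read from this count. Of the other 7 genes, 5 were higher, and the median difference of the 7 was 0.24; over all genes 50.2% were higher, with a median of 0.0011. The 1 of these 7 at 2-fold was Cilp2, which has only a bound and entered through the aneurysm array alone, so nothing is read from it. Cilp2 is also 1 of the 5 higher genes and part of the median of 0.24. Nothing is therefore read from setting these 2 values against those over all genes. The plot of every repeat spot shows each gene on both arrays.

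**Figure D1:**
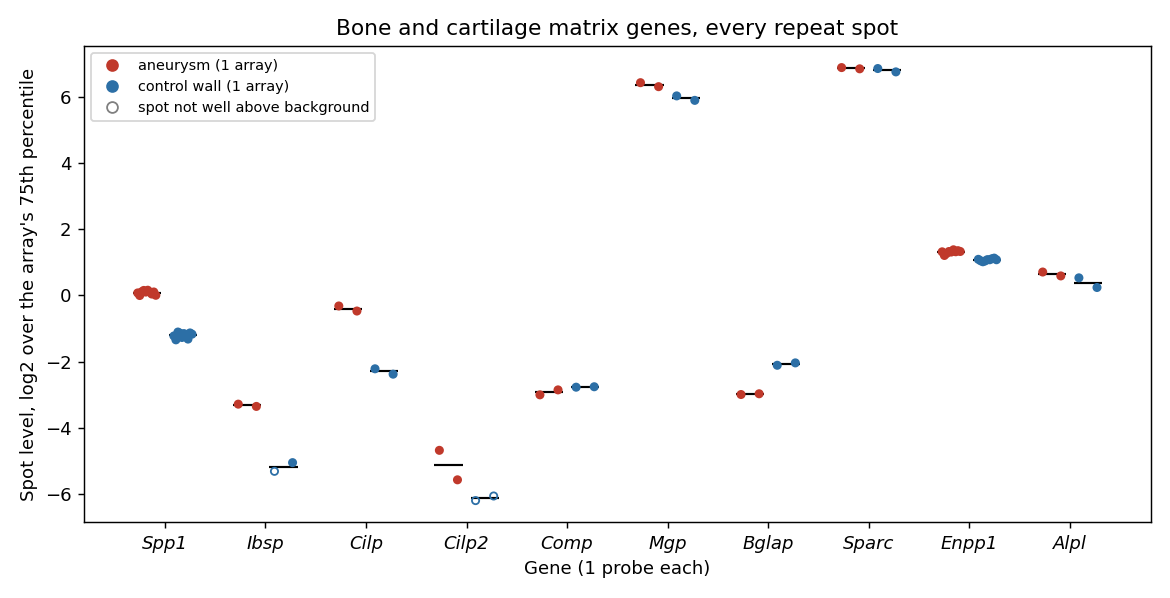
Level of every repeat spot of the 10 matrix genes, as log2 over the 75th percentile of its array (vertical axis), by gene (horizontal axis), with aneurysm spots in red left of control spots in blue, 1 array each. Black bars are the means of the spots, open circles are spots that were not well above background, and outlier spots are left out. Spots of Spp1, Ibsp and Cilp lie clearly apart on the arrays, spots of Sparc overlap, and Bglap is the gene with the widest gap in the other direction.

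Spp1, which encodes osteopontin, was measured by 10 spots per array. Its intensity ranged over 799, 859 and 893 (lowest, median and highest spot) in the aneurysm, and over 244, 272 and 288 in the control. The 10 aneurysm spots all lay above the 10 control spots, also after scaling. The difference was 1.29 ± 0.04, a 2.45-fold higher signal, and spot by spot it ran from 1.18 to 1.37. This was rank 35 of 11903 genes in order of difference. Under 12 other settings it lay between 1.11 and 1.60, at least 2-fold higher each time. Spp1 has 1 probe, with every spot flagged and no outlier spots. The settings on dim probes, probe averaging, outlier spots and ties therefore leave its value unchanged by construction. Nothing is read from the number of settings that agree.

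Ibsp, which encodes bone sialoprotein, a protein best known from mineralising bone, was much dimmer. Its 2 spots had intensities of 78.1 and 81.9 in the aneurysm, against 15.5 and 18.6 in the control. The spots did not overlap, but in the control only 1 of the 2 was flagged as well above background. The difference was 1.87 ± 0.49, or 3.65-fold, rank 5 of 11903. With normexp background correction, which adds an offset and so shrinks the differences of dim genes by construction, it was 0.64 on processed signals and 0.48 on median signals, both under 2-fold.

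The other SIBLING genes lie beside them: in the RefSeq gene order of rat chromosome 14, Spp1, Mepe, Ibsp, Dmp1 and Dspp follow each other with no other protein-coding gene between. Mepe, a bone and tooth matrix phosphoprotein, had an intensity of 27.0 in the aneurysm and 11.4 in the control, where it was not well above background, and its bound was 0.88 ± 0.58. Dspp, the dentin sialophosphoprotein gene, had 12.9 in the aneurysm, below the flag, and 16.2 in the control, a bound of -0.70 ± 0.61. Another Dspp probe was below the flag on both arrays (3.11 in the aneurysm, 3.39 in the control). Dmp1, a matrix protein of osteocytes and dentin, stayed below the detection flag in both libraries (8.21 in the aneurysm, 5.01 in the control). Mepe and Dspp were under 2-fold, but Mepe was at 1.09 with quantile normalization and at 1.19 with spike-in scaling. With normexp Mepe had no value. When a probe with as many unflagged as flagged spots was not called, Mepe was at 0.57 and Dspp had no value. The bounds of Mepe and Dspp equal their measured differences and are no firm minimum. Dmp1 has no difference. Pkd2, the neighbour on the outer side of Spp1, differed by 0.22 ± 0.13, and Sparcl1, beyond Dspp, by 0.34 ± 0.02.

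The promoters of Spp1, Ibsp and Cilp, the 3 genes on which the set was chosen, are shown to let their sequences be compared. They are RefSeq windows on build GRCr8, from 250 bases before to 50 after the transcript start that the table uses, 5′ to 3′ on the gene's strand: chr14:5619755-5620054 (minus strand) for Spp1, chr14:5757193-5757492 (minus strand) for Ibsp and chr8:74672198-74672497 (plus strand) for Cilp. Capitals mark matches, on either strand, to TATAAA, the core of a TATA box, to CCAAT, the box of that name, to TGTGGT, a core bound by RUNX factors, or to TGANTCA, bound by AP-1.

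Spp1: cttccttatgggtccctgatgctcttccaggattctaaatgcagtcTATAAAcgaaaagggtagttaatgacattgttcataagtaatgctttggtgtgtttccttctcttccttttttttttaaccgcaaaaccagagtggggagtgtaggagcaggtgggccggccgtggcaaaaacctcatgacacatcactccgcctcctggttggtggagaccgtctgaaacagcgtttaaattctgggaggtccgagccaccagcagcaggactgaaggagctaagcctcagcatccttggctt

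Ibsp: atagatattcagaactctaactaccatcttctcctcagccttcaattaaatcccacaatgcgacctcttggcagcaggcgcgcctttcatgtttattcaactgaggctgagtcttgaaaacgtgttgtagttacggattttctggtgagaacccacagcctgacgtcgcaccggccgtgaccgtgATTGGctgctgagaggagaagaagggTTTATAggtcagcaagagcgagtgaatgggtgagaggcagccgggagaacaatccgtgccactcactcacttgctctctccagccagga

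Cilp: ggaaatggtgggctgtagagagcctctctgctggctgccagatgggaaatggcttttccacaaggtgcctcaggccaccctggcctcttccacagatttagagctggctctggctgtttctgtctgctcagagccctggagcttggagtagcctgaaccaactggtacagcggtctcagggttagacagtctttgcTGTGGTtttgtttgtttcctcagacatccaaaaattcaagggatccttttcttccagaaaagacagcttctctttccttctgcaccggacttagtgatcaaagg

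The Ibsp window holds a reversed TATA box, which begins 39 bases before the start and reads TTTATA, and a reversed CCAAT box 65 bases before it. The Ibsp promoter of rat is known for this pair of inverted boxes. The Spp1 window has TATAAA 204 bases before the start, and the Cilp window has TGTGGT 54 bases before it. Of the 8 genes of the set with a window, 3 held TATAAA, 2 CCAAT, 3 TGTGGT and 0 TGANTCA. Over 33469 windows of the same length, 14.2% held TATAAA, 37.5% CCAAT, 17.3% TGTGGT and 7.3% TGANTCA. No motif was found in all of Spp1, Ibsp and Cilp. These matches are letters in a window, not measured sites.

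Cilp, which encodes cartilage intermediate layer protein, a secreted matrix protein known to bind TGF-beta, had the highest difference of the set. Its 2 spots had intensities of 642 and 577 in the aneurysm, against 133 and 119 in the control. Both aneurysm spots lay far above both control spots, and the spot-by-spot differences were 1.90 and 1.91. The difference was 1.91 ± 0.12, or 3.75-fold, rank 4 of 11903, and it lay between 1.52 and 2.21 under the 12 other settings.

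Cilp2, the paralog of Cilp, was at the edge of detection. Its 2 spots had intensities of 31.1 and 16.7 in the aneurysm, and of 8.39 and 9.24 in the control, where neither was flagged. The aneurysm spots lay above the control spots but differed from each other nearly as much as from the control, so that spot by spot the differences were 1.52 and 0.49. The value of 1.005 ± 0.61, or 2.01-fold, was the last of the 105 genes counted as 2-fold higher (rank 105), and it is no firm minimum. It equals the measured difference, because the control signal lay above the lowest signal called well above background there. It was 0.95 when the 75th percentile was taken over spots well above background on both arrays, 0.33 when a probe with as many unflagged as flagged spots was not called, and had no value with normexp.

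Comp, cartilage oligomeric matrix protein, a thrombospondin family member, did not follow Cilp. Its 2 spots had intensities of 99.6 and 110 in the aneurysm, and of 90.5 and 91.4 in the control. The raw intensities were higher in the aneurysm, but less so than those of the array as a whole, and after scaling both spots were lower. The difference was -0.16 ± 0.17, within its spot error, and it turned to 0.15 with spike-in scaling, which raises all differences by 0.309. Of the other thrombospondin genes with a probe, Thbs1 was at -0.19 ± 0.40 and Thbs2 at 0.08 ± 0.06.

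Mgp, matrix Gla protein, an inhibitor of arterial calcification, was bright on both arrays. Its 2 spots had intensities of 69409 and 63837 in the aneurysm, against 40748 and 37104 in the control. The spots did not overlap, and the difference was 0.41 ± 0.05, or 1.33-fold, with 9.21% of all genes at larger values. It stayed under 2-fold under all 12 other settings (0.35 to 0.72).

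Bglap, which encodes osteocalcin, the Gla protein of osteoblasts, had the lowest difference of the set. Its 2 spots had intensities of 100.2 and 102 in the aneurysm, against 143 and 151 in the control. Both aneurysm spots were below both control spots. The difference was -0.91 ± 0.15, a 1.88-fold lower signal, under the 2-fold threshold, with 4.51% of all genes at smaller values. It was negative under all 12 other settings (-0.96 to -0.60), so the 2 Gla protein genes lay on opposite sides of 0.

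Sparc, osteonectin, a collagen-binding matrix protein that many vessel wall cells make, had nearly the same scaled level on both arrays. Its spots had intensities of 95256 and 92814 in the aneurysm, and of 72345 and 67429 in the control. After scaling they overlapped, alone among the 10 genes, and the difference was 0.06 ± 0.05. For comparison, 67.9% of all genes with at least 2 spots per array had spots that did not overlap. In the SPARC family list, 2 of 6 measured genes were higher, with a median of -0.09, and Smoc1 lay lowest at -0.79 ± 0.44. With spike-in scaling 5 of the 6 were higher, and the median was 0.22, below the median of 0.31 over all genes under that scaling.

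Enpp1, which makes pyrophosphate, had 9 spots per array after 1 outlier was left out on each. Its intensity ranged over 1852, 2002 and 2086 in the aneurysm, and over 1257, 1311 and 1357 in the control. The difference was 0.24 ± 0.03, and all 9 spot pairs were higher in the aneurysm. Alpl, which removes pyrophosphate, had spots of 1308 and 1206 in the aneurysm, and of 897 and 733 in the control. The difference was 0.26 ± 0.06, so that the enzymes of opposite action differed by similar, small amounts. Both were higher under all 12 other settings and under 2-fold in each.

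**Figure D2:**
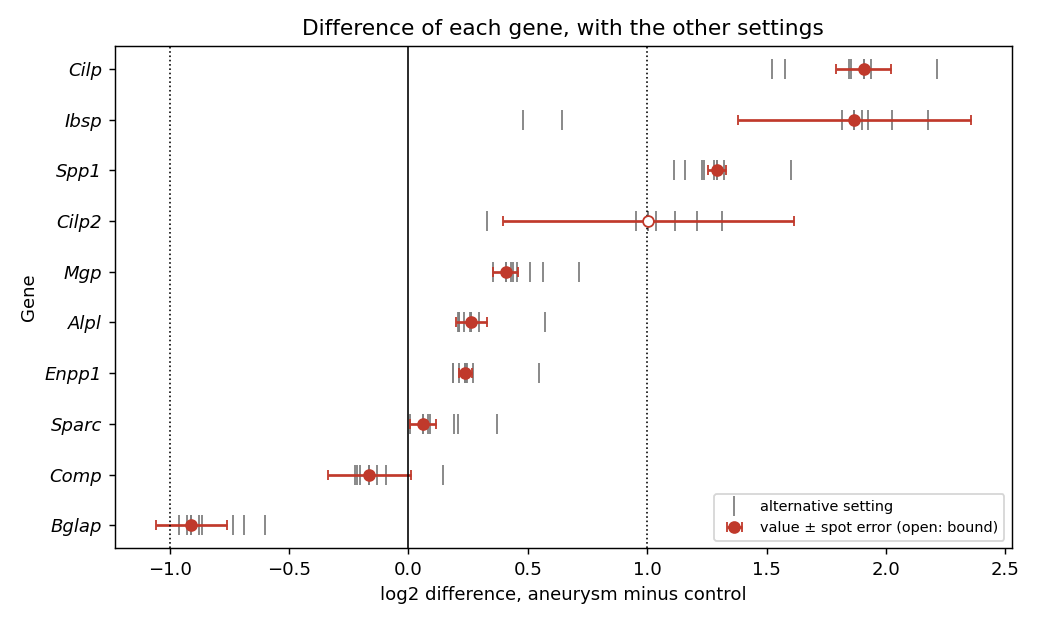
Difference of each matrix gene (horizontal axis, log2 aneurysm minus control), ordered from the highest at the top, with its spot error and, as grey ticks, its values under the other settings. Dotted lines mark 2-fold and the open point is a bound; Spp1 and Cilp keep all ticks above 2-fold, while Ibsp has 2 ticks below it, at 0.48 and 0.64.

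**Figure D3:**
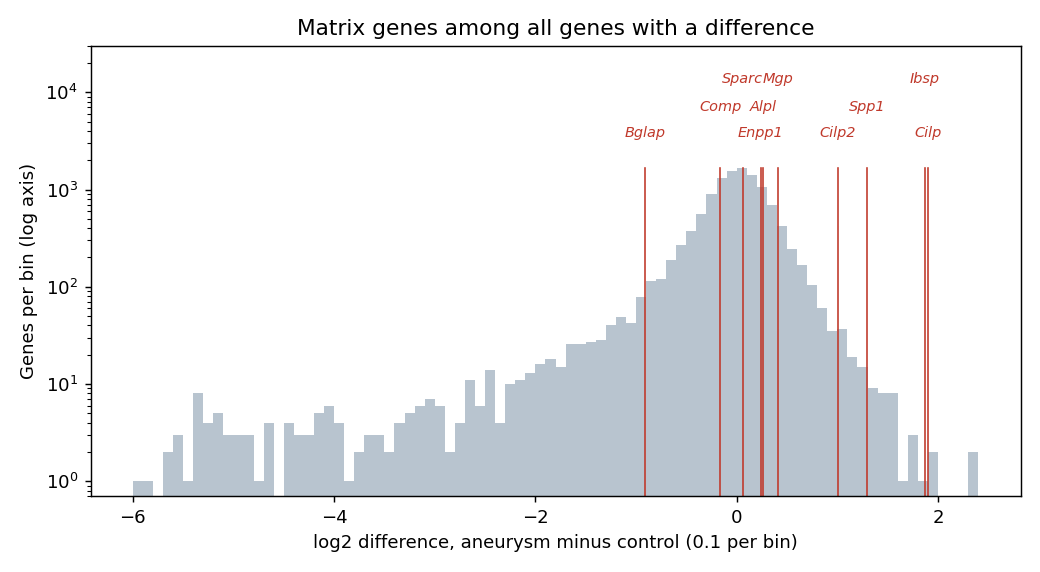
Number of genes (vertical log axis) by difference (horizontal axis, log2 aneurysm minus control, 0.1 per bar) for the 11903 genes with a value, with the 10 matrix genes as red lines. Cilp, Ibsp and Spp1 lie in the thin upper tail, Mgp, Alpl, Enpp1, Sparc and Comp in the central mass, and Bglap on its lower side.

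Lists of related genes were set beside the 10, and each is described by its counts and median. Over all genes 50.2% were higher, 0.882% at least 2-fold higher and 3.91% at least 2-fold lower, with a median of 0.0011. The cartilage and tendon matrix list had 15 genes measured on both arrays and 1 bound (Matn4, not well above background in the control); 8 of the 16 were higher, Matn4 among them, and 2 at least 2-fold higher, with a median of -0.02. Its higher genes were Chad, the collagen-binding chondroadherin, at 1.23 ± 0.16 (259 in the aneurysm, 85.7 in the control), and Tnmd, the tendon membrane protein tenomodulin, at 1.05 ± 0.25 (101 in the aneurysm, 37.6 in the control). With normexp on processed signals these were 0.86 and 0.46. Genes of structural cartilage collagens did not share this direction: Col11a2 was at -0.71 ± 0.06, Col9a2 at -0.46 ± 0.05 and Col2a1 at 0.01 ± 0.19, and Cnmd, chondromodulin, was at -0.73 ± 0.20. Acan, which encodes aggrecan, the main cartilage proteoglycan, stayed below the flag in both libraries (3.26 in the aneurysm, 3.30 in the control), as did Epyc and Matn1. With spike-in scaling the list median was 0.29, with 10 of 16 higher. The median over all genes was then 0.31, and list values under that scaling are read against it.

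The osteoblast and osteocyte list had 12 genes measured on both arrays and 1 bound, with 8 of the 13 higher, 0 at least 2-fold higher and a median of 0.17. With spike-in scaling 12 of 14 were higher, with a median of 0.45, where the median over all genes was 0.31. Postn, periostin, was at 0.99 ± 0.49, the osteoblast transcription factor gene Dlx5 at 0.64 ± 0.18 and Sost, sclerostin, at 0.50 ± 0.51. With normexp on processed signals Postn was at 0.19 and Dlx5 at 0.33, and Sost turned to -0.07. Postn passed 2-fold with median centring (1.02), loess (1.06), quantile normalization (1.18) and spike-in scaling (1.30). The 1 gene at least 2-fold lower was the bound, Phex, an endopeptidase of bone that was well above background in the control only (-2.20 ± 0.56). The osteoblast factor gene Sp7 was at -0.36 ± 0.20, and no probe was matched to Runx2. The osteoclast list had 5 genes measured on both arrays and 1 bound, with 3 of the 6 higher, 0 at least 2-fold higher and 1 at least 2-fold lower, and a median of -0.06 (0.25 with spike-in scaling). Its collagen-degrading protease Ctsk was at 0.35 ± 0.06, Acp5, the tartrate-resistant phosphatase, at 0.15 ± 0.03, and Calcr, the calcitonin receptor, well above background in the control only, at a bound of -1.998 ± 0.64. Calcr was at -0.62 with normexp on processed signals, and under 2-fold on median signals too. Atp6v0d2 and Mmp9 were below the flag in both libraries.

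Of genes of mineral handling other than Enpp1 and Alpl, 5 of 12 were higher, with a median of -0.05. With spike-in scaling 10 of 12 were higher, with a median of 0.26, where the median over all genes was 0.31. Among them Enpp3, a related ectoenzyme, was at 0.49 ± 0.03, Nt5e, which makes adenosine, at 0.39 ± 0.17, and Abcc6, a transporter needed for pyrophosphate release, at -0.37 ± 0.07. Ahsg, fetuin-A, a mineral-binding plasma protein made by liver, was 1 gene at least 2-fold lower, at -4.03 ± 0.14 (48.5 in the aneurysm, 614 in the control). All 7 genes of the vitamin K and Gla protein list were higher, with a median of 0.15 and 0 at 2-fold; the carboxylase Ggcx was at 0.01 ± 0.06 and Pros1, protein S, at 0.69 ± 0.38. With normexp on processed signals 5 of these 7 were higher.

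Receptors that bind osteopontin were higher in all 6 genes measured on both arrays and in 1 bound, with a median of 0.29 over the 7 and 0 at 2-fold. The bound, 0.71 ± 0.61, was that of Itgb3, the beta 3 integrin subunit, which was well above background in the aneurysm only and passed 2-fold with spike-in scaling (1.02). Of the others, Itgb1 was at 0.61 ± 0.06, Itgb5 at 0.32 ± 0.07 and Itga8 at 0.29 ± 0.03. Cd44, the hyaluronan receptor that also binds osteopontin, was at 0.19 ± 0.11. With normexp, 5 of 6 (processed signals) and 4 of 6 (median signals) were higher. With the probes of a gene averaged, 6 of 7 were higher. The count was also 6 of 7 with the 75th percentile taken over spots well above background on both arrays. No probe was matched to Itgav or Itga9, and Itgb6 was below the flag in both libraries.

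**Figure D4:**
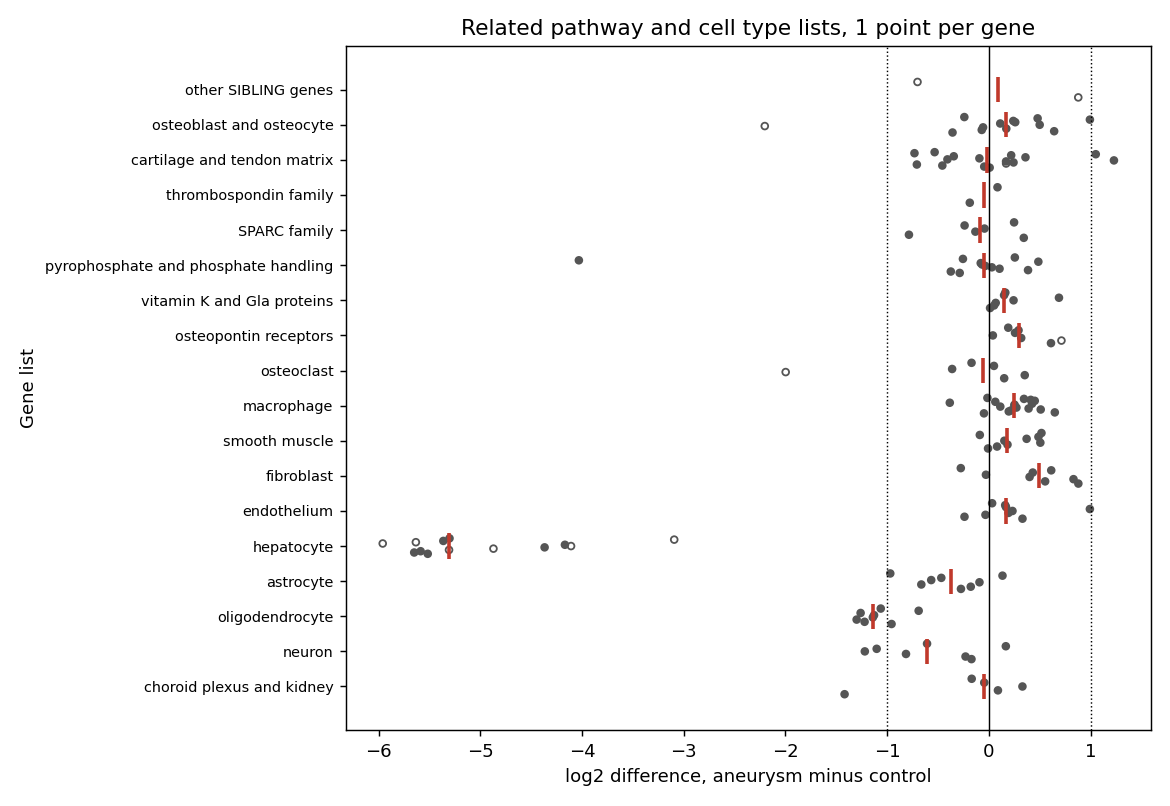
Difference of each gene (horizontal axis, log2 aneurysm minus control) in the lists of related pathways and cell types (vertical axis), with 1 point per gene, open where the value is a bound, and the median of each list as a red bar. Dotted lines mark 2-fold; the fibroblast and osteopontin receptor medians, at 0.49 and 0.29, lie above 0, and the hepatocyte and oligodendrocyte medians, at -5.31 and -1.13, below it.

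Markers of cell types that can make these proteins also differed between the libraries. Genes of fibroblasts were higher in 6 of 8 (median 0.49), with a summed level of 72.6 times the 75th percentile in the aneurysm and 56.2 in the control, led by Lum at 0.88 ± 0.09. Genes of macrophages, a source of osteopontin, were higher in 14 of 17 (median 0.25), with summed levels of 109 in the aneurysm and 94.7 in the control, Cd163 at 0.65 ± 0.09 and Cd68 at -0.05 ± 0.06. Smooth muscle genes were higher in 7 of 9 (median 0.18; sums of 150.4 in the aneurysm and 128 in the control), and endothelial genes in 7 of 9 (median 0.17; sums of 19.0 in the aneurysm and 17.3 in the control), with all measured markers of these 4 lists well above background on both arrays. The highest value in these 4 lists was that of Eng, endoglin, a co-receptor for TGF-beta on endothelium, at 0.99 ± 0.09, or 1.99-fold (691 in the aneurysm, 269 in the control). None of the genes in these lists reached 2-fold, but Eng passed it with median centring (1.02) and spike-in scaling (1.30), and with spike-in scaling so did 2 fibroblast genes. With normexp, endothelial genes were higher in 6 of 9 (processed signals, median 0.06) and 5 of 9 (median signals, median 0.01). The medians over all genes were then -0.06 and -0.08. In the same order, fibroblast genes were higher in 6 and 6 of 8, macrophage genes in 14 and 13 of 17, and smooth muscle genes in 8 and 7 of 9. In bulk tissue more cells of a type and more RNA per cell cannot be told apart, and the part of these cell types in the differences was not tested.

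Markers of liver and brain were lower in the aneurysm. All 13 hepatocyte genes with a value were at least 2-fold lower (median -5.31), 7 of them measured on both arrays and 6 as bounds not well above background in the aneurysm, with summed levels of 0.66 in the aneurysm and 26.1 in the control, and Cps1 and Tat below the flag in both. Oligodendrocyte genes were lower in 8 of 8, 6 of them at least 2-fold (median -1.13; sums of 85.2 in the aneurysm and 168 in the control), neuron genes in 6 of 7 (median -0.61; sums of 3.85 in the aneurysm and 5.51 in the control) and astrocyte genes in 7 of 8 (median -0.37; sums of 49.3 in the aneurysm and 60.1 in the control). In the choroid plexus and kidney list 2 of 5 genes were higher (median -0.05, sums of 8.20 in the aneurysm and 21.5 in the control). Most of both sums was Ttr, transthyretin (6352 in the aneurysm, 13154 in the control). It was the 1 gene of the list at least 2-fold lower, at -1.42 ± 0.05. The kidney genes Nphs1 and Slc34a1 were below the flag in both. With spike-in scaling 0 oligodendrocyte genes were at least 2-fold lower (median -0.83, all 8 still lower). Under it 4 of 8 astrocyte and 3 of 7 neuron genes were higher. The choroid plexus and kidney median was then 0.26, and that over all genes 0.31. The part of liver and brain RNA in the differences of Bglap and of the other matrix genes was not tested.

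By likeness of the pair of scaled log2 levels over the 2 arrays, the genes nearest to Spp1 were Pthlh (parathyroid hormone-like hormone; distance 0.13, difference 1.17 ± 0.09), Fhl2 (0.21, difference 0.99) and Inmt (0.22, difference 0.98). Among those near Ibsp were Vnn1 (distance 0.25, difference 1.59) and Tmem252 (0.40, difference 1.40). No gene lay close to Cilp, the nearest being Fcgr3a (0.71), Vipr1 (0.77) and RT1-CE4 (0.79). With 2 arrays this likeness is that of 2 numbers, and probe signals are not molar levels.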

How the data were processed

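RNA of aneurysm and RNA of control arterial wall were measured on 1-colour arrays, 1 array each. Samples were grouped by title. The authors deposited scanner output: processed spot intensity on a linear scale, median spot and background intensity, and other values, which are flags per spot. Per the file headers, the software was Feature Extraction 10.10.1.1. The array design used build rn4, and its coordinates are not used here. Accessions were matched without version to RefSeq symbols of a later assembly (18006 of 30367 probes).

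Deposited intensity was divided by the 75th percentile of all non-control spots of that array and put on the log2 scale. Outlier spots (573 in the aneurysm, 484 in the control) were left out and spots of a probe averaged. A probe counted as well above background when no fewer than 1 of every 2 spots carried that flag; a gene was given by its brightest such probe. A gene detected on 1 array only received a bound, set against its own dim value or the lowest detected level, whichever was higher. Where its own dim value was higher, as for Cilp2, Mepe, Dspp, Itgb3 and Matn4, the bound equals the measured difference and is no firm minimum. Spot error pooled spot variance over 20 bins of signal. The number of arrays limits the precision. No test was run, since there was 1 array per group; the code was tested on simulated data. Members, lists (18) and motifs were chosen with earlier results of these data known. Named were all members, up to 4 genes per list with the largest differences plus any at 2-fold, and the 3 nearest genes to Spp1, Ibsp and Cilp, of which 1 is not reported here; Cd68, Acp5, Sp7, Col9a2, Col2a1, Ggcx, Cd44, Pkd2 and the genes given as undetected were named after their values were seen. Normexp and loess used limma 3.58.1 in R 4.3.3; the rest used Python 3.11.15 with numpy 2.4.6 and pandas 2.3.3. Mean signals, for which normexp had been planned, were not used here; processed signals took their place.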

Additional observations from a re-analysis of the deposited data

How the results depend on the processing

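The direction of 9 of the 10 genes was the same under every other setting that gave a value (12 settings, 9 for Cilp2); Comp turned from -0.16 to 0.15 with spike-in scaling. The count of matrix genes at least 2-fold higher, 4 as reported, was 2 with normexp on processed signals and 2 with normexp on median signals, which was chosen after seeing the data. It was 0 at a 4-fold threshold, and 3 or 4 otherwise. At 1.5-fold, 1 matrix gene (Bglap) was lower. Over all genes, 105 were higher and 465 lower as reported. These counts were 16 and 213 with normexp on processed signals, 14 and 193 with normexp on median signals, 183 and 756 with no filter on dim probes, 51 and 237 with probes well above background on both arrays only, 506 and 1003 at 1.5-fold, and 2 and 178 at 4-fold. The higher count was 165 with quantile normalization, 314 with spike-in scaling and 59 when a tie of spots was not called, also chosen after seeing the data. Of genes 2-fold apart, 81.6% were lower as reported, 93.0% with normexp on processed signals, 71.1% after quantile normalization and 51.4% after scaling on spike-ins. Fewer genes enter by construction where the filter is stricter; otherwise the cause was not tested. A block for slide was not run, because both arrays lay on 1 slide. No paired analysis was possible because each group has 1 array, and no array could be left out. Signal over background limits Ibsp and Cilp2.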
